A study of Mus musculus with 25 samples.

Results

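The precursor hairpins of miR-192 and miR-194 were taken by name, as mmu-mir-192, mmu-mir-194-1 and mmu-mir-194-2 (without the species prefix from here on), from a table of small RNA read counts. They are 3 of its 1193 rows. The RNA came from brain hemispheres of male C57BL/6 mice. C57BL/6 is a common inbred strain. The animals were 2, 9, 15, 24 and 30 months old, with 5 libraries at each age and 25 in all. The labels name no treatment, transgene or genetic change, and nothing in them states that libraries came from separate animals, though each title has a number of its own. P-values therefore measure the spread between these libraries. Each held between 3.78 and 9.52 M reads.

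MicroRNAs are cut from hairpin precursors and pair with messenger RNAs mainly through the seed, bases 2 to 8 of the mature strand. miR-192 and miR-194 are known from liver, kidney and gut epithelium. In human cells p53, the stress-activated tumour suppressor, induces both, and they take part in p53-dependent arrest of the cell cycle. In mammals the pair is encoded in 2 clusters: one holds mir-194-2 and mir-192, and the other mir-194-1 and mir-215, whose product shares the miR-192 seed.

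The mature sequences decide what the counts can tell apart, so the arms that matter are given here from RefSeq (GRCm38.p6), 5′ to 3′, with the seed in capitals. All 3 names, and mir-215, matched an entry.
miR-192-5p: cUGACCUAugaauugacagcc
miR-215-5p: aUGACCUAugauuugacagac
miR-194-5p, from both mir-194 hairpins: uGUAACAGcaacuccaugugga
miR-194-1-3p: cCAGUGGAgcugcuguuacuuc
miR-194-2-3p: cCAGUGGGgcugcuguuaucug

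Among 1679 mature mouse miRNA names in the same RefSeq set, UGACCUA was the seed of 2, miR-192-5p and miR-215-5p. GUAACAG was the seed of miR-194-5p alone. miR-192-5p and miR-215-5p matched at 18 of 21 positions, with the differences C1A, A12U and C20A (miR-192 base first, positions from the 5′ end). The 3p arms of the mir-194 hairpins matched at 18 of 22 positions and differed by A8G, C19U, U20C and C22G (mir-194-1 base first). The hairpins follow, with the mature arms in capitals, to show where the mir-194 copies match and where they differ.
mir-194-1: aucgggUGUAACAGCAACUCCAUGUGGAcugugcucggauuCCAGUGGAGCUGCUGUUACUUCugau
mir-194-2: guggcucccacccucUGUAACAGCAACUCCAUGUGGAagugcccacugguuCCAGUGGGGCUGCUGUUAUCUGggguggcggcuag
mir-192: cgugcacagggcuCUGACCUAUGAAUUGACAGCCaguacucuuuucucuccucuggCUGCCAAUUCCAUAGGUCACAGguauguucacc

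The longest run common to both mir-194 hairpins was 22 bases, the length of the 5p arm itself. A read of miR-194-5p therefore belongs equally to either row, and how such reads were counted is not given in the sources used here. A difference between the mir-194 rows can thus rest only on 3p reads, on reads that run past the 5p arm, or on the counting.

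In GRCm38.p6, with the same positions in GENCODE M21, mir-194-2 lies on the plus strand at chr19:6264643-6264728. mir-192 lies 115 bases downstream on the same strand, at chr19:6264844-6264932. No other GENCODE gene overlaps this pair: Atg2a ends 2307 bases before mir-194-2, and the lincRNA Gm14963 begins 3862 bases after mir-192, on the other strand. mir-194-1 lies on the plus strand at chr1:185313319-185313385, in the intron of the noncoding gene 2010103J01Rik and opposite an intron of Iars2, the mitochondrial isoleucyl-tRNA synthetase gene. mir-215 lies 195 bases downstream of mir-194-1, in an exon of 2010103J01Rik.

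The members differed widely in read number. Levels are given as CPM (counts per M reads, scaled between libraries by the trimmed mean of M values). mir-192 had 9181 to 18745 reads in a library and a mean of 2402 ± 198 CPM (SD, n = 25), the 66th highest mean of the 1193 rows, between mir-341 at 2449.70 CPM and mir-181b-2 at 2329.68 CPM. mir-194-2 had 287 to 712 reads and 83.9 ± 9.83 CPM, the 230th highest mean, between mir-185 at 88.6 CPM and mir-770 at 80.7 CPM. mir-194-1 had 244 to 524 reads and 66.0 ± 8.58 CPM, the 239th highest. mir-215, the seed relative of miR-192, had 16 to 57 reads and 5.66 ± 1.72 CPM, so mir-192 held nearly all reads with that seed. Ligation favours some small RNAs over others, so these are read levels and not molar amounts. All 3 members and mir-215 passed the filter on low counts, which kept 425 rows.

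Libraries of 1 sequencing lane, lane 3, which held 1 library of each age, tended to be low for these miRNAs. Their ranges overlapped those of the other lanes, and how many other precursors were low there was not worked out. Lane 7 was also low for mir-192, with a mean of 2272 CPM against 2189 CPM in lane 3. mir-194-1 lay between 52.1 and 62.6 CPM in lane 3, against 60.6 to 90.2 CPM in the 20 other libraries, and the lane 3 library was the lowest of its age at all 5 ages. mir-194-2 lay between 69.2 and 77.4 CPM in lane 3, against 70.2 to 104 CPM elsewhere, and was the lowest at 4 of 5 ages. mir-192 lay between 1951 and 2602 CPM in lane 3, against 2032 to 2685 CPM elsewhere, and was also the lowest at 4 of 5 ages. Each age therefore had 1 such library, and values without lane 3 stand beside the results below.

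For mir-192 no test of a difference between ages passed. At 2 months its 5 libraries had 2036, 2444, 2313, 2622 and 2306 CPM, and at 9 months 2685, 2602, 2515, 2497 and 2581 CPM. At 15 months they had 2335, 2553, 2184, 2340.0 and 2603 CPM, at 24 months 2421, 2416, 2421, 2171 and 2571 CPM, and at 30 months 2456, 2490.1, 2032, 2495 and 1951 CPM. Each pair of neighbouring ages overlapped, as did 30 and 2 months. The highest 30-month library, at 2495.3 CPM, lay just below the lowest 9-month one, at 2496.6 CPM. That pair of ages was not tested on its own, and the share of all precursors so separated was not worked out. No result is drawn from it.

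The means of mir-192 were 2344 ± 215 CPM at 2 months, 2576 ± 75.1 at 9 months, 2403 ± 172 at 15 months, 2400.1 ± 144 at 24 months and 2285 ± 269.9 at 30 months (SD, n = 5 each). In order of level the ages ran 9, 15, 24, 2 and 30 months. No adjacent pair of ages passed, the largest step being 0.14 ± 0.07 (log2 fold change, SE) at 9 over 2 months (edgeR's quasi-likelihood test, Benjamini-Hochberg adjusted over 425 precursors, adjusted p = 0.260). mir-192 at 30 over 2 months gave a log2 fold change of -0.04 ± 0.07 (adjusted p = 0.691). The 95% interval of that difference ran from -0.19 to 0.11. Its slope on age was -0.03 ± 0.03 log2 per 12 months (adjusted p = 0.450), and the test of any difference among the 5 ages gave an adjusted p of 0.293, where 32.7% of all tested precursors were called.

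**Figure D1:**
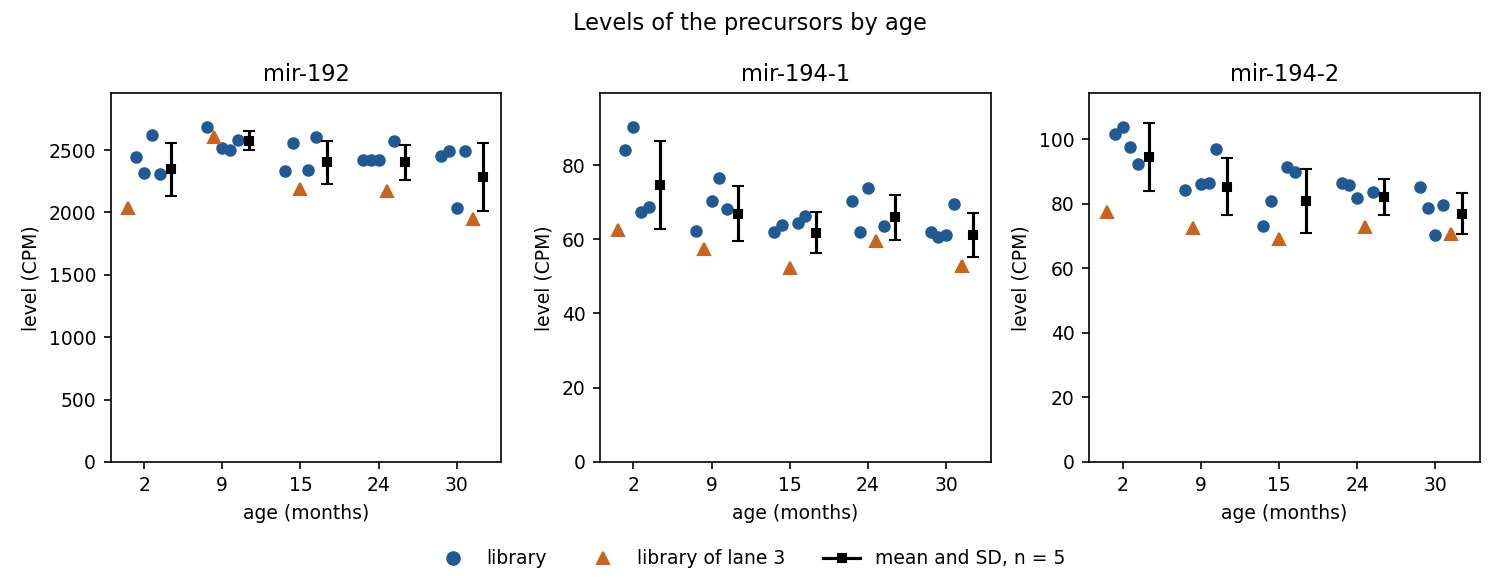
Level of each precursor (vertical axis, CPM, from 0) by age in months, with 1 point per library, triangles for lane 3 and black squares for the mean with SD (n = 5). mir-192 stays between 1951 and 2685 CPM, while both mir-194 rows have their highest libraries at 2 months, up to 90.2 and 104 CPM.

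Both mir-194 rows were lower in old than in young brains, by about the same amount. At 30 over 2 months the log2 fold change was -0.30 ± 0.09 for mir-194-2 (SE, n = 5 each, 95% interval -0.49 to -0.11, edgeR adjusted p = 0.0143). It was -0.28 ± 0.10 for mir-194-1 (95% interval -0.50 to -0.07, adjusted p = 0.0318). The mir-194 rows share the miR-194-5p sequence, so their like falls do not count as separate results. Both were called lower and mir-192 was not, where 36.9% of all tested precursors were called in this comparison and 17.9% were called lower. A fall of this kind was thus common in these brains. Upper-quartile scaling gave 50 higher and 91 lower calls over all precursors, against 81 and 76 here. In hemispheres, less of a miRNA per cell and fewer of the cells that hold it cannot be told apart.

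mir-194-2 had 85.1, 78.7, 70.2, 79.7 and 70.7 CPM at 30 months, against 77.4, 101.8, 103.8, 97.5 and 92.4 CPM at 2 months. Of the 2-month libraries 4 lay above every 30-month library, and the one that did not was the lane 3 library. The means were 94.6 ± 10.6 CPM at 2 months, 85.3 ± 8.79 at 9 months, 80.8 ± 9.88 at 15 months, 82.1 ± 5.48 at 24 months and 76.9 ± 6.36 at 30 months (SD, n = 5 each). The highest mean was thus the youngest and the lowest the oldest, with 24 and 15 months the nearest neighbours.

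mir-194-1 had 61.9, 60.6, 61.1, 69.6 and 52.8 CPM at 30 months, against 62.6, 83.9, 90.2, 67.3 and 68.6 CPM at 2 months. Here 4 of the 30-month libraries lay below every 2-month library, and the fifth, at 69.6 CPM, lay above 3 of them. Its means were 74.5 ± 11.9 CPM at 2 months, 66.9 ± 7.42 at 9 months, 61.8 ± 5.58 at 15 months, 65.9 ± 5.97 at 24 months and 61.2 ± 5.94 at 30 months (SD, n = 5 each). For no member were the 30-month and 2-month libraries fully apart, which was so, with 30 months lower, for 11.1% of all tested precursors.

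No single step between neighbouring ages passed for either mir-194 row, and the largest estimated fall came at 9 over 2 months. The log2 fold changes of mir-194-2 were -0.15 at 9 over 2 months, -0.08 at 15 over 9, 0.02 at 24 over 15 and -0.09 at 30 over 24 (SE 0.09 each, edgeR adjusted p from 0.344 to 0.998). Those of mir-194-1 were -0.16, -0.12, 0.09 and -0.11 in the same order (SE 0.10 each, adjusted p from 0.372 to 0.998). In these steps 7.76%, 0.0%, 0.235% and 8.71% of all tested precursors were called. As a line over all 25 libraries, mir-194-2 fell by a slope of -0.11 ± 0.03 log2 per 12 months (adjusted p = 0.0165), while mir-194-1, at -0.10 ± 0.04, did not pass (adjusted p = 0.0556). The slope called 35.5% of all tested precursors. The test of any difference among the ages did not pass for mir-194-2 (adjusted p = 0.0969) or mir-194-1 (adjusted p = 0.144). With lane as a covariate these passed: the any-age test for mir-194-2 (adjusted p = 0.00881) and mir-194-1 (adjusted p = 0.0166), and the slope of mir-194-1 (-0.086, adjusted p = 0.0406).

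Because the rows share the miR-194-5p reads, their reads were also summed and fitted as 1 row. If each such read was counted at both rows, the sum holds it 2 times, and reads of mir-192 per read of mir-194 come out up to 2 times too low. The sum had 146.9, 139.3, 131.2, 149.3 and 123.5 CPM at 30 months, against 139.9, 185.7, 194.05, 164.9 and 160.9 CPM at 2 months. Only the 2-month library of lane 3 fell among the 30-month values. The sum fell by -0.31 ± 0.10 (log2 fold change, SE, edgeR adjusted p = 0.0168), with a slope of -0.11 ± 0.04 per 12 months (adjusted p = 0.0208). This is no further evidence beside the separate rows, whose reads it holds.

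Both mir-194 rows also passed without lane 3, but the call of mir-194-1 was lost without some single libraries. Without lane 3 the log2 fold changes at 30 over 2 months were -0.36 for mir-194-2 (edgeR adjusted p = 0.00174), -0.32 for mir-194-1 (adjusted p = 0.0108) and -0.06 for mir-192 (adjusted p = 0.460). With only the 2-month replicates 3 to 5, whose title numbers form a separate run from those of the other 2, they were -0.37 (adjusted p = 0.0104), -0.33 (adjusted p = 0.0405) and -0.10 (adjusted p = 0.351) in the same order. Where a lane had libraries of 30 and of 2 months, as 4 lanes did, the 30-month one was lower, with differences in log2 CPM of -0.13, -0.29, -0.31 and -0.40 for mir-194-2 and of -0.24, -0.54, -0.15 and -0.17 for mir-194-1 (lanes 3, 5, 6 and 7). The call of mir-194-1 was lost without 2-month replicate 2 (-0.28, adjusted p = 0.0581) or 3 (-0.24, adjusted p = 0.0871) and without 30-month replicate 5 (-0.28, adjusted p = 0.0678). That of the sum was lost without 30-month replicate 5 (-0.26, adjusted p = 0.0536), while mir-194-2 kept its call in all 25 refits without 1 library.

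The reads of mir-194 were divided between the rows in nearly the same way at every age. mir-194-1 held 44.0 ± 1.95% of them over all libraries (SD, n = 25), within 40.8% and 47.5%. The mean share was 44.0 ± 2.24% at 2 months, 43.9 ± 2.21% at 9 months, 43.4 ± 1.75% at 15 months, 44.5 ± 2.09% at 24 months and 44.3 ± 2.13% at 30 months (SD, n = 5 each). The share lay below 50% in every library, but with shared reads the rows cannot be read as separate measurements of the loci.

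Relative to the mir-194 rows together, mir-192 was therefore higher at 30 than at 2 months. The ratio holds the same mir-194 reads, so it is no separate evidence of their fall. A ratio within a library needs no scaling between libraries. At 30 months there were 16.7, 17.9, 15.5, 16.7 and 15.8 reads of mir-192 per read of mir-194 (both rows together), against 14.5, 13.2, 11.9, 15.9 and 14.3 at 2 months. Of the 30-month libraries 3 lay above every 2-month library. The log2 ratio was 4.04 ± 0.08 at 30 months and 3.797 ± 0.16 at 2 months (SD, n = 5 each), a difference of 0.25 (two-sided exact permutation test, p = 0.0238, where 0.00794 is the smallest possible). With mir-194-2, the neighbour on chromosome 19, alone as the denominator the difference was 0.25 (exact permutation p = 0.00794). Without lane 3 it was 0.28 with 4 libraries at each age (exact permutation p = 0.0571, smallest possible 0.0286).

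The ratio of the intermediate ages lay with that of the oldest age. It averaged 14.0 ± 1.504 reads of mir-192 per read of mir-194 at 2 months, 17.1 ± 2.04 at 9 months, 16.9 ± 1.18 at 15 months, 16.2 ± 0.808 at 24 months and 16.5 ± 0.937 at 30 months (SD, n = 5 each). The 2-month mean was the only one below 16, and the other means lay within 1 SD of the 9-month mean. These intermediate values are a description and were not tested.

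**Figure D2:**
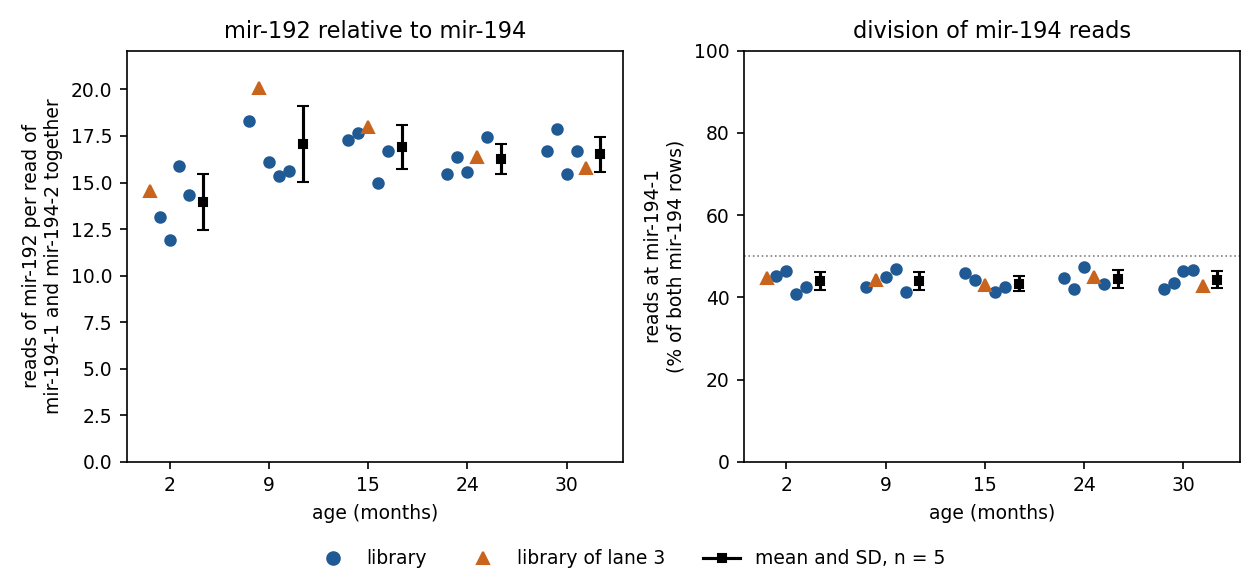
Left, reads of mir-192 per read of both mir-194 rows by age in months, and right, the percent of mir-194 reads counted at mir-194-1, with a dotted line at 50%; points are libraries, triangles lane 3, and squares mean and SD (n = 5). The 2-month libraries have the lowest mean ratio, 14.0, and the share at mir-194-1 stays between 40.8% and 47.5%.

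mir-192 and mir-194-2 are commonly read as products of 1 transcript, so the levels of miR-192 and miR-194 were compared over libraries. Pearson's r of log2 CPM of mir-192 with the mir-194 sum was 0.44 over the 25 libraries (permutation test, 100000 resamples, p = 0.0275), with Spearman's rho 0.33 (permutation p = 0.102). The relation did not hold within lanes. With each library taken relative to its lane mean, r was -0.03 (permutation within lanes, p = 0.873, rho -0.00), and without lane 3 it was 0.17 over 20 libraries (permutation p = 0.469). Without the 2 libraries farthest from the median of mir-192 it was 0.24 over 23 libraries (permutation p = 0.271). Relative to the age means it was 0.57 (permutation within ages, p = 0.00709). Each lane held 4 or 5 libraries, too few for a value of its own. This was the only relation tested.

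**Figure D3:**
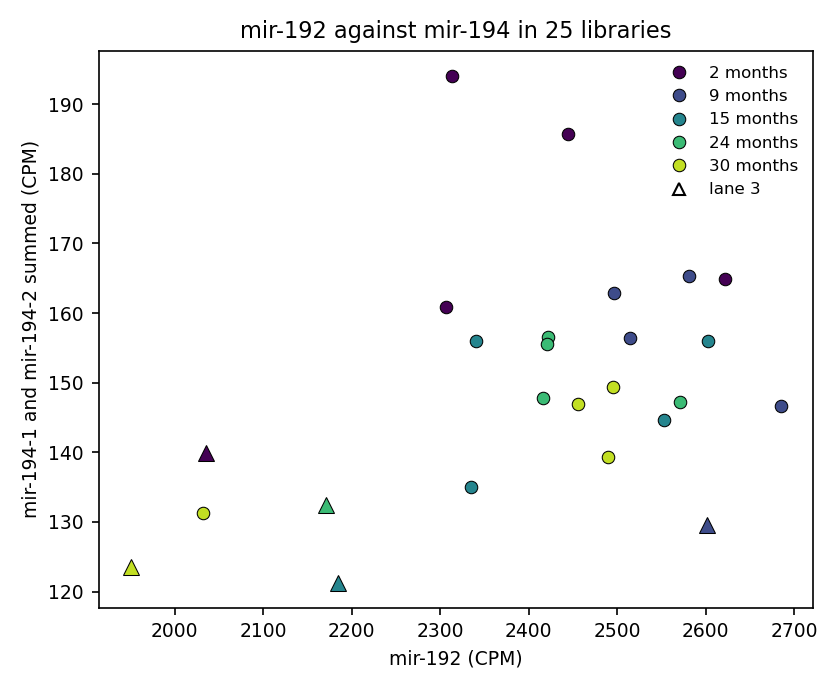
mir-192 (horizontal axis, CPM) against both mir-194 rows summed (vertical axis, CPM) in 25 libraries, coloured by age, with triangles for lane 3; neither axis starts at 0. Of the 5 lane 3 libraries 4 lie at the lower left, and r is 0.44 with them and 0.17 without lane 3.

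Among the 422 other tested precursors, those most like mir-192 over the 25 libraries by Pearson's r of log2 CPM were mir-491 (0.72), mir-99a (0.70) and mir-135a-1 (0.68). Those most like the mir-194 sum were mir-181c (0.74), mir-132 (0.72) and mir-670 (0.70). The median r was -0.02 for mir-192 and -0.05 for the mir-194 sum. The members' own rows gave r of 0.79 between mir-194-1 and mir-194-2, which share reads, 0.49 between mir-192 and mir-194-2 and 0.32 between mir-192 and mir-194-1. All of these values share the lanes and the library scaling.

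Of a list of 12 other miRNA precursors tied to p53, 11 were tested, of which 3 rose and 0 fell between 30 and 2 months, with a median log2 fold change of 0.19. The median was 0.05 over all tested precursors, of which 19.1% were called higher and 17.9% lower. mir-34c, of the family most directly induced by p53 and also a miRNA of multiciliated cells, rose to 2371 ± 141 CPM at 30 months, against 1965 ± 239 CPM at 2 months (SD, n = 5 each). Its log2 fold change was 0.27 ± 0.08 (SE, edgeR adjusted p = 0.0152). Its relatives mir-34a (0.19 ± 0.09, adjusted p = 0.09997) and mir-34b (0.09 ± 0.09, adjusted p = 0.453) did not pass.

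mir-15a, a repressor of cyclins and of BCL2, rose to 571 ± 49.5 CPM at 30 months, against 473 ± 35.3 CPM at 2 months (0.27 ± 0.06, adjusted p = 0.00221). Its cluster partner mir-16-1, whose mature sequence a further copy shares, rose by 0.20 ± 0.08 (adjusted p = 0.0443). When 1 library was left out, mir-16-1 no longer passed in 17 of 25 refits (0.11 to 0.21, p after adjustment 0.0211 to 0.242). It also missed the threshold with a stricter filter (0.16, edgeR adjusted p = 0.0728), in DESeq2 (0.17, adjusted p = 0.0699) and under 4 further alternatives. mir-34c no longer passed in 6 of them (0.20 to 0.29) and under upper-quartile scaling (0.21, adjusted p = 0.0750), nor with 2-month replicates 3 to 5 alone (0.27, adjusted p = 0.0513). mir-107, whose host gene is Pank1 and which p53 induces with it, lay at 0.11 ± 0.05 (adjusted p = 0.0617).

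mir-143 and mir-145a, whose maturation p53 promotes in human cells, lay at -0.00 ± 0.05 and -0.10 ± 0.11 (log2 fold change, 30 over 2 months, edgeR adjusted p = 0.952 and 0.487). mir-141 and mir-200c, of the epithelial miR-200 family, varied widely between libraries, at 0.73 ± 1.14 and 0.25 ± 0.95 (adjusted p = 0.633 and 0.841). mir-215 had 5.80, 3.57, 5.01, 10.5 and 4.98 CPM at 30 months, against 3.33, 4.46, 8.77, 6.79 and 4.36 CPM at 2 months. The ages overlapped and the difference did not pass (0.11 ± 0.27, adjusted p = 0.759). The remaining member, mir-605, has no row in the table used here.

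**Figure D4:**
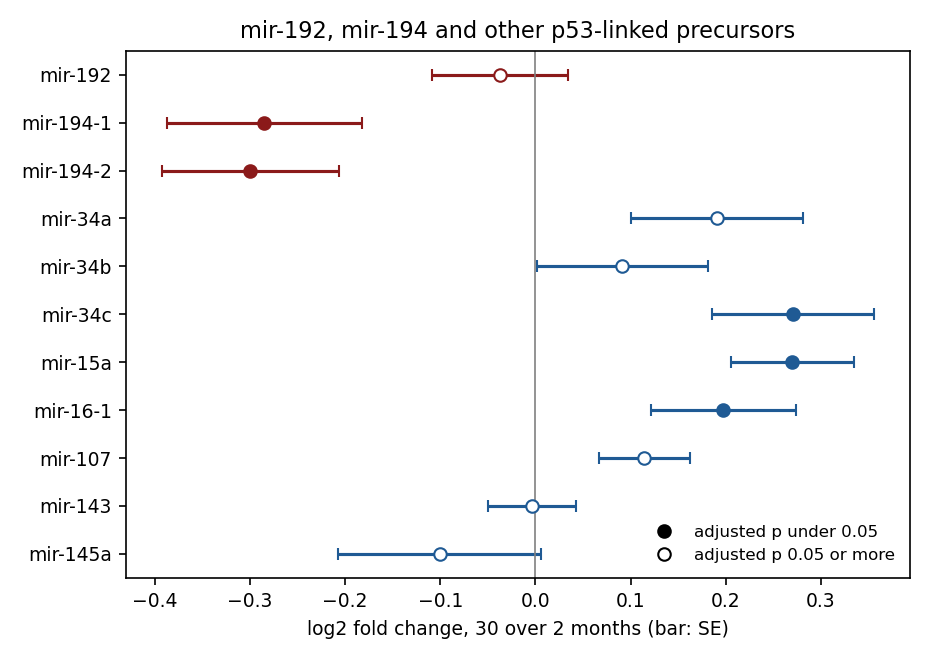
Log2 fold change at 30 over 2 months (horizontal axis, bars are SE) of the 3 members, at the top in red, and of 8 other p53-linked precursors in blue; filled points have an adjusted p under 0.05. The mir-194 rows lie near -0.3 and mir-34c, mir-15a and mir-16-1 above 0; mir-141, mir-200c and mir-215, with SE from 0.27 to 1.14, are not drawn.

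The tissue was checked against miRNAs that mark it and against those of other cells that hemispheres could carry. The neuronal mir-124, mir-9 and mir-128 loci summed to between 62079.8 and 79792 CPM at 30 months and between 69179.5 and 79741 CPM at 2 months, with mir-128-1 the most abundant at a mean of 15721 CPM. mir-122, the defining miRNA of liver, was near 0, with 1 to 50 reads in a library and 1.41 ± 0.817 CPM at 30 months against 1.73 ± 1.02 CPM at 2 months (SD, n = 5). Of 5 liver and digestive-epithelium precursors 0 were called in either direction (5 of 5 tested), and the summed level was 149 to 178 CPM at 30 months and 118 to 181 CPM at 2 months, mostly mir-375. Markers of kidney were not analysed here.

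In marker lists of other cells, some precursors were called between 30 and 2 months. Over all tested precursors 19.1% were called higher and 17.9% lower, and the lists were not tested against these shares. Whether such cells had a part in the fall of mir-194 was not tested. Of 4 erythroid precursors 0 were called, with summed levels of 2523 to 4999.7 CPM at 30 months and 2068 to 3493 CPM at 2 months, led by mir-486a. Of 5 leukocyte precursors mir-155 (1.39 ± 0.26) and mir-142a (0.39 ± 0.12) rose and mir-150, the most abundant, fell (-0.50 ± 0.07), and the sum was 1556 to 1760.0 CPM at 30 months and 1739.9 to 2112 CPM at 2 months. Of 4 tested choroid plexus and multiciliated precursors mir-449a (0.72 ± 0.17) and mir-449c (0.61 ± 0.21) rose, and the sum, mostly mir-204, was 6467 to 7844 CPM at 30 months and 5773 to 6878 CPM at 2 months. mir-449b had 0 reads in all libraries of both ages.

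Of 10 epithelial and sensory precursors only mir-203 (0.56 ± 0.08) was called, and the sum, mostly mir-182, was 1401 to 8900.3 CPM at 30 months and 505 to 7180.4 CPM at 2 months. Of 6 endothelial and mural precursors mir-199a-1 (0.27 ± 0.08) and mir-199b (0.30 ± 0.10) rose, and the sum, mostly mir-143, was 28733 to 31137 CPM at 30 months and 28004 to 32022 CPM at 2 months. Of 8 neuronal precursors mir-128-1 (-0.37 ± 0.09) and mir-128-2 (-0.35 ± 0.09) fell. The others, the mir-124 and mir-9 rows, lay between 0.08 and 0.10 and did not pass, and the list median was 0.09. Of 4 tested muscle precursors mir-133a-1 (0.31 ± 0.08) and mir-133a-2 (0.25 ± 0.08) rose, and the sum was 230.0 to 279 CPM at 30 months and 188 to 251 CPM at 2 months (log2 fold changes with SE, n = 5 per age, edgeR adjusted p of these called members from 6.51e-06 to 0.0250). The other tested muscle precursors, mir-1a-1 (-0.50 ± 0.20, edgeR adjusted p = 0.0536) and mir-1a-2 (-0.36 ± 0.26, adjusted p = 0.292), lay lower and did not pass. The median of the muscle list was -0.06. Under upper-quartile scaling the counts called higher were 1 leukocyte, 1 choroid plexus and multiciliated, 0 endothelial and mural, and 1 muscle precursor. Without lane 3, mir-449c (0.51, edgeR adjusted p = 0.0558) and mir-199b (0.26, adjusted p = 0.0775) no longer passed.

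With 2-month replicates 3 to 5 alone, further calls of these lists were lost. They were those of mir-128-1 (-0.26, edgeR adjusted p = 0.0513), mir-128-2 (-0.24, adjusted p = 0.0508), mir-133a-1 (0.20, adjusted p = 0.0711), mir-133a-2 (0.16, adjusted p = 0.173), mir-199a-1 (0.23, adjusted p = 0.0635), mir-199b (0.25, adjusted p = 0.0923) and mir-449c (0.38, adjusted p = 0.245). With only the 2 ages in the fit mir-449c (0.58, adjusted p = 0.102), mir-199b (0.27, adjusted p = 0.106), mir-133a-1 (0.28, adjusted p = 0.0584) and mir-133a-2 (0.22, adjusted p = 0.105) did not pass. mir-449c also missed the threshold with no filter on low counts (0.61, adjusted p = 0.0552) and in DESeq2 (0.57, adjusted p = 0.0571).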

How the data were processed

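The authors deposited whole-number read counts per miRNA precursor, with no arm named, for 1193 precursors in 25 libraries. Per the labels' protocols, libraries were made from total RNA with the TruSeq small RNA kit. Among the tools in the submitters' processing notes are Trimmomatic 0.36, bcl2fastq 1.8.4 and SAMtools 1.3.1-9. Genome build, aligner, counter, strand setting and the handling of multiply matching reads: not given in the sources used here. Lane was read from the column names (6 lanes).

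Counts were fitted with edgeR 4.0.16 (R 4.3.3): filterByExpr kept 425 precursors, library sizes were scaled by TMM, and 1 quasi-likelihood model with a mean per age held all libraries. P-values were adjusted by Benjamini-Hochberg over all tested precursors, with a threshold of 0.05. The SE is the log2 fold change divided by the square root of F. Summing the mir-194 rows re-estimated the scaling, so its fold change may lie outside those of its parts. Ratios used log2 of reads plus 0.5, and permutation tests used scipy 1.17.1. DESeq2 1.42.0, other scalings and filters, lane, and leaving out each library were alternatives. Over 50 replicate pairs, chi-square per degree of freedom was at least 12.5, so none was taken as 1 library.

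The members, lists and tests were chosen with earlier results of these data known. The genes named are the members, the p53-linked list, called or most abundant members of the marker lists, and the 3 precursors most like each of mir-192 and the mir-194 sum.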

Additional observations from a re-analysis of the deposited data

How the results depend on the processing

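No paired analysis was possible because replicates are numbered only as deposited, so a number links no libraries across ages. Lane, which does recur across ages, was fitted as a covariate. Of 1054 alternative values for the members, the p53-linked count, the ratio and the correlation, 990 were taken as unchanged. That meant the same direction and side of the threshold, or for the any-age test the same side alone. For the p53-linked count called higher, 2 or 4 in place of 3 was also taken as unchanged. Most of the 1054 values belong to tests that did not pass in the main fit, which count as unchanged by again not passing. The 990 therefore say little about the results that passed. mir-194-2 at 30 over 2 months passed under all 10 alternatives (-0.37 to -0.28) and in all 25 refits without 1 library, and mir-192 passed in none of them.

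With no filter on low counts mir-194-1 at 30 over 2 months was -0.28 (edgeR adjusted p = 0.0796), and the slopes per 12 months were -0.11 for mir-194-2 (adjusted p = 0.0516) and -0.10 for the mir-194 sum (adjusted p = 0.0535). With only the 2 ages in the fit mir-194-1 was -0.32 (adjusted p = 0.0642). The slope of mir-194-1 passed at -0.11 with a stricter filter, RLE or upper-quartile scaling, without lane 3 and in DESeq2, and at -0.086 with lane as a covariate. The any-age adjusted p passed under upper-quartile scaling (mir-194-1 0.0374, mir-194-2 0.0266, sum 0.0168) and with lane as a covariate (0.0166, 0.00881 and 0.000851 in the same order). It also passed for mir-194-2 and the sum without lane 3 (0.0180 and 0.0103) and in DESeq2 (0.0430 and 0.0298). With lane as a covariate the sum at 9 over 2 months was -0.16 (adjusted p = 0.0413). mir-192 at 24 over 15 months was 0.047 under upper-quartile scaling and 0.023 when scaled by library totals, against -0.00. The count of p53-linked precursors called higher, 3 in the main fit, was 1 under upper-quartile scaling. It was 2 with a stricter filter, RLE scaling, library totals or DESeq2. The ratio was 0.28 without lane 3, and the correlation was -0.034 within lanes, 0.17 without lane 3 and 0.24 without the 2 farthest libraries. Among list members at 30 over 2 months, mir-143 was 0.000689 with no filter, mir-200c -0.24 and mir-215 -0.026 with lane as a covariate, and mir-215 -0.17 with 2-month replicates 3 to 5 alone. The cause of these changes was not tested.

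Leaving out each library in turn, 30 over 2 months ranged from -0.39 to -0.24 for mir-194-1 and from -0.40 to -0.26 for the sum. The slope ranged from -0.13 to -0.080 for mir-194-1 and from -0.13 to -0.095 for the sum. 24 over 15 months ranged from -0.047 to 0.031 for mir-192, from -0.044 to 0.066 for mir-194-2 and from -0.025 to 0.087 for the sum. The any-age adjusted p ranged from 0.0441 to 0.303 for mir-194-1, from 0.0222 to 0.223 for mir-194-2 and from 0.0161 to 0.224 for the sum, each passing only without 2-month replicate 1. The p53-linked count called higher ranged from 1 to 4, and was 1 without 2-month replicate 1 or 3 or 30-month replicate 2 or 3. Among list members mir-143 ranged from -0.068 to 0.017, mir-200c from -0.34 to 1.08, mir-215 from -0.21 to 0.29 and mir-34b from -0.0081 to 0.13. The SE of a log2 fold change between ages was 0.07 for mir-192, with 9181 to 18745 reads per library, 0.09 for mir-194-2, with 287 to 712, and 0.10 for mir-194-1, with 244 to 524.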
